A study of Mus musculus with 5 samples.

Results

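Small nucleolar RNAs (snoRNAs) were examined in germinal center B cells with and without the alternative NF-κB factors RELB and NFKB2. The set comprised every row of the deposited gene table whose name began with SNORA or SNORD followed by a digit, 123 of 38924 rows. Of these, 46 rows were box H/ACA snoRNAs (SNORA) and 77 were box C/D snoRNAs (SNORD). They carried 117 distinct names, and 5 names were repeated over 11 rows (Snora7, Snora21, Snora43, Snora61 and Snora62), whose rows are numbered here in table order. Mice aged 12 weeks had been given sheep red blood cells 7 days earlier, and germinal center B cells, eGFP+ by the series title, were then purified from their spleens by cell sorting. The WT group (n = 3 libraries) carried Cγ1-Cre alone, and the DKO group (n = 2) carried Cγ1-Cre with floxed alleles of both Relb and Nfkb2 (relbfl/flnfkb2fl/flCg1-Cre), so that all libraries shared the Cre driver and the immunization. The mice were littermates. Cγ1-Cre acts in cells that transcribe the IgG1 constant region, and cells that escape recombination would keep intact alleles. The labels number the replicates without saying that each came from a separate mouse, so p-values measure the spread between these samples, which may be technical.

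snoRNAs are short nucleolar RNAs that guide the modification of other RNAs, chiefly ribosomal RNA. Box C/D snoRNAs bind fibrillarin, NOP56, NOP58 and SNU13 and direct ribose methylation, whereas box H/ACA snoRNAs bind dyskerin, GAR1, NHP2 and NOP10 and direct the conversion of uridine to pseudouridine. Most mammalian snoRNAs are cut from introns of host genes, many of which encode ribosomal proteins or translation factors or are noncoding hosts, and are released by debranching and exonuclease trimming of the excised intron. A few, among them Snord118 and Snord13, are made from their own promoters. Reads of an unspliced host intron and reads of the mature snoRNA cannot be told apart in a table of counts per gene.

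The sequences of the 7 tested snoRNAs whose DKO values all lay above all WT values are shown, since these members are described one by one. They were taken by symbol from the GENCODE M21 transcripts (genome build GRCm38, another build than the mm9 named in the submitters' processing notes) and are written as DNA, 5′ to 3′, on the strand of the RNA. In the box C/D snoRNAs the capitals mark TGATGA, the core of box C, within the first 20 bases and CTGA, box D, within the last 15 bases. Snord53 has no CTGA in that window and carries capitals for box C alone. In the box H/ACA snoRNAs they mark the last ACA within the final 10 bases. Only the sense strand was searched, and the marked motifs do not overlap each other. In Snora23 the marked ACA overlaps an earlier, unmarked ACA, which is followed by exactly 3 bases.
Snord17: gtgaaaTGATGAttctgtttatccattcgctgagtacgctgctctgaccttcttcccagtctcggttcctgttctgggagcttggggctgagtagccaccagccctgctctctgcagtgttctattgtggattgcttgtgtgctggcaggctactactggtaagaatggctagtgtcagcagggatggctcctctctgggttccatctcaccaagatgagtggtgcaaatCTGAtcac
Snord82: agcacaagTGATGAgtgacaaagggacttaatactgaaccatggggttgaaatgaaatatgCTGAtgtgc
Snord14a: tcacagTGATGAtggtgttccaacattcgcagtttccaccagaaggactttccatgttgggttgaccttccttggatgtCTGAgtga
Snord53: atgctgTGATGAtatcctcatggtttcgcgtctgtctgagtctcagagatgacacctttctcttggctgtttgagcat
Snora28: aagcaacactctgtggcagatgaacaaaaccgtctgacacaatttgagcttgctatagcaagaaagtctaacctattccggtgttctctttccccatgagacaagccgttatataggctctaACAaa
Snora23: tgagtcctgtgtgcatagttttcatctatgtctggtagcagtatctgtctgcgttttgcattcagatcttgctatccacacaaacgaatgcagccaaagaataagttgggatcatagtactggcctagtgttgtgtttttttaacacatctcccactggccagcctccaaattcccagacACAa
Snora30: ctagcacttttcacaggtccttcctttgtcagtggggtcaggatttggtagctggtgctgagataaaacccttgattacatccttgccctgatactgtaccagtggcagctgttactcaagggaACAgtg

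In GRCm38 these genes lie at chr2:144265979-144266216 on the minus strand (Snord17), chr1:86356261-86356330 on the minus strand (Snord82), chr7:116333171-116333257 on the minus strand (Snord14a), chr17:71640879-71640956 on the plus strand (Snord53), chr12:111540941-111541067 on the plus strand (Snora28), chr7:110046364-110046547 on the plus strand (Snora23) and chr7:127527874-127528003 on the plus strand (Snora30). Snord17, at 238 bases, is the longest box C/D member matched. Its annotated host is Snx5, a sorting nexin gene, and those of the others are Ncl (nucleolin) for Snord82, Rps13 for Snord14a, Wdr43 for Snord53, Eif5 for Snora28, Ipo7 (an importin) for Snora23 and Srcap for Snora30. The host lists 2 transcripts across Snord17, 2 across Snord82, 3 across Snord53, 4 across Snora23 and 7 across Snora30, and in all of them the snoRNA is intronic. Eif5 has 7 transcripts with Snora28 in an intron and 2 with it in an exon, and Rps13 has 3 and 4 for Snord14a.

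The names largely matched the sequence classes, though not every member held the motifs of its class. Of the 123 rows, 109 could be tied to a single GENCODE gene, 76 box C/D and 33 box H/ACA. TGATGA stood in the first 20 bases of 49 of the 76 box C/D members and of 0 of the 33 box H/ACA members. CTGA stood in the last 15 bases of 70 and 1. Both motifs were found in 47 of the 76 box C/D members. ACA stood in the last 10 bases of 31 of the 33 box H/ACA and 8 of the 76 box C/D members. In 24 of those 31 exactly 3 bases followed the last such ACA, a count that leaves out Snora23, where an earlier overlapping ACA has that place. The same windows held TGATGA in 0.474%, CTGA in 6.85% and ACA in 14.0% of the 140260 GENCODE transcripts not typed as snoRNA. Annotated box C/D members ran from 64 to 238 bases (median 80.5) and box H/ACA members from 121 to 205 (median 132).

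Of the sequenced reads, between 15.4 and 17.7 M per library fell outside the mitochondrial genome, which took 49.65% to 73.12% of the totals. The targeted genes were lower in the DKO libraries, with Relb at 136, 171 and 117 normalized counts for WT against 56.9 and 10.7 for DKO, and Nfkb2 at 657, 601 and 445 against 298 and 73.5. Neither passed the limma test (adjusted p = 0.823 for each). These counts cover the whole gene and not the deleted part alone. All 6 germinal center and all 5 pan-B markers examined were in the table, but not all were level. Rgs13, a germinal center marker, was at 8381, 3777 and 4727 for WT against 1476 and 1990 for DKO (limma adjusted p = 0.768, DESeq2 adjusted p = 0.00131), Cd79a was separated lower in DKO and Pax5 separated higher. Markers of other cells varied between libraries of the same genotype: the summed level of 3 NK markers was 9.64, 212 and 0 normalized counts for WT against 58.7 and 21.5 for DKO, and that of 3 naive B markers was 3301, 13105 and 6827 against 11966 and 5603, both high in WT replicate 2 and DKO replicate 1. The 2 erythroid markers in the table, Hba-a1 and Alas2, summed to 18.2, 14.4 and 14.4 for WT against 74.4 and 24.8 for DKO, with no overlap between the genotypes. The 7 T cell markers summed to 1390, 2052 and 1499 against 1878 and 1300. Most of this sum was Cd2, nearly level at 1342, 1391 and 1468 against 1519 and 1229. Each of the other T cell markers had its 2 highest values in WT replicate 2 and DKO replicate 1. Cd3e, for example, was at 10.7, 363 and 7.69 against 163 and 26.4. The 4 myeloid markers summed to 958, 813 and 99.9 against 1044 and 396. The part of these cells in the snoRNA values was not tested, and in bulk samples fewer cells of a type and less RNA per cell cannot be told apart.

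snoRNA rows were thinly covered. Their 3727 reads over the 5 libraries, 1664 in box H/ACA and 2063 in box C/D rows, were spread over 75 rows, while 48 rows were at 0 in every library. A count of 0 over the 5 libraries allows a level of up to 0.0367 RPM, scaled here to the reads outside the mitochondrial genome (3 reads, counting error only). Rows at 0 made up 39.1% of box H/ACA and 39.0% of box C/D rows, beside 40.0% of all rows of the table. A further 52 rows had reads but a mean below 10 normalized counts (reads divided by the authors' scaling factor), the minimum for testing. The remaining 23 rows, 11 box H/ACA and 12 box C/D, were tested, which is 18.7% of the snoRNA rows against 34.0% of all rows. The last row to pass the minimum was Snora30, with a mean of 10.1, and the first below it was Snord37, with 9.15.

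Rows at 0 included snoRNAs of hosts with high counts. A row at 0 had no counted reads, which does not show that the snoRNA was absent from the cells. Snord14c, Snord14d and Snord14e, which act in small-subunit rRNA maturation, were at 0 although their host Hspa8, the constitutive heat shock cognate, averaged 16663 normalized counts. Their paralog Snord14a, in Rps13, had a mean of 17.7. In Rpl13a, which averaged 2540, Snord32a, Snord33 and Snord34 were at 0 and Snord35a had a mean of 4.54. Snord95 and Snord96a in Rack1, Snord57 in Nop56 and Snord47 in Gas5 were likewise at 0, with a host mean of 3737 for Rack1, 7886 for Nop56 and 3737 for Gas5. In 1810032O08Rik, which averaged 40.6, Snord1a, Snord1b and Snord1c were at 0. In Rpl23a, at 85.3, Snord42a and Snord4a were at 0 and Snord42b had a mean of 0.961. The noncoding host 2410006H16Rik, at 97.5, held 3 members with reads, Snord65 at 6.35, Snord49a at 4.88 and Snord49b at 4.79. Of the other members known for rRNA processing, Snord22, Snora73a and Snora73b were at 0, Snord13 had 1 read over the 5 libraries, and of the 2 rows of Snora62 the first had a mean of 1.89 and the second was at 0. Snord118, required for large-subunit rRNA maturation, had a mean of 12.0. Snord64, Snord107, Snord113, Snord116l1 and Snord116l2, which lie in imprinted clusters known for expression in brain, were all at 0.

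Rows at 0 were more frequent among members that overlap a host exon. Among 46 members that overlap an exon in at least 1 annotated host transcript, 29 (63.0%) were at 0, compared with 11 of 59 (18.6%) that are intronic in every transcript. The split held in both classes, with 21 of 30 against 8 of 43 in box C/D and 8 of 16 against 3 of 16 in box H/ACA. These are counts of members, which share hosts, and are given without a test. How the authors assigned reads that overlap 2 genes is not given in the sources used here, and the annotation is not theirs. By length, members at 0 in box C/D had a median of 76 bases and those tested a median of 87, while in box H/ACA the medians were 133 and 130.

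**Figure D1:**
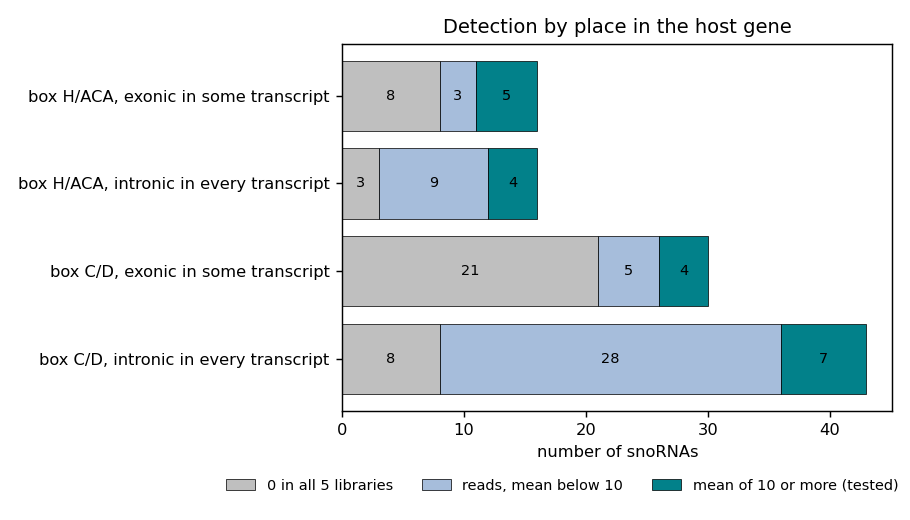
Number of snoRNAs (x axis) by class and place in the host gene, split into rows at 0 in all 5 libraries (grey), rows with reads and a mean normalized count below 10 (light blue) and rows tested (green). In both classes the rows at 0 are more frequent among members that overlap an exon of some host transcript (21 of 30 and 8 of 16) than among purely intronic members (8 of 43 and 3 of 16).

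Counts differed widely among the tested members. How well the amplified libraries recovered RNAs this short was not tested, so the counts are not taken as snoRNA abundances in the cells. Per 100 bases of annotated length, the mean normalized count was highest for Snora68 (57.8), Snord35b (44.0), Snord100 (30.2) and Snord82 (28.6), and lowest for Snora30 (7.75), of the 21 members with an annotated length. After Snora68, the box H/ACA members highest per length were Snora33 (22.8) and Snora24 (16.5). Snora68 stood at 62.1, 62.9 and 83.6 normalized counts for WT against 71.8 and 98.3 for DKO. The groups overlapped, and all 5 of its values lay above those of every other tested member apart from Snord17 and Snord35b. Snord35b was at 34.3, 49.5 and 28.8 for WT against 62.2 and 16.5 for DKO, so that its highest and lowest values were both DKO libraries. Next in mean level came Snora33, Snord16a and Snord100 (29.5, 26.4 and 22.3), whose 5 libraries overlapped so far that no order among them is given.

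No snoRNA passed the test between genotypes. With limma and Benjamini-Hochberg adjustment over all 13242 genes tested, 0 of the 23 tested members and 0 of all genes (0%) had an adjusted p under 0.05, and the smallest adjusted p of a member was 0.823. At an unadjusted p under 0.05 there were 2 members higher in DKO, Snord17 and Snora23, and 0 lower, against 3.69% and 2.37% of all tested genes (6.06% in either direction) and 4.12% higher among genes of like level. With edgeR on the recovered reads 0 members and 0% of genes were called, and at an unadjusted p under 0.05 there were 2 members higher and 0 lower, against 3.36% and 2.29% of genes. DESeq2 called 0 members and 0.219% of all genes. The median standard error of a log2 fold change was 0.78 for tested members, 0.74 for the other genes of like level and 0.33 for all genes.

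Values were more often higher than lower in DKO. Of the 23 tested members 19 had a positive log2 fold change, beside 50% of all tested genes and 60.5% of the 3934 other genes in the same range of mean levels, 10.1 to 75.7 normalized counts. With quantile scaling it was 14 of 22, against 48.9% of all genes. Without DKO replicate 2 it was 14 of 21, and without WT replicate 2 and DKO replicate 1, the libraries richest in naive B markers, 19 of 21 with a single DKO library left. The median log2 fold change of the tested members was 0.41, beside 0.00 for all genes and 0.20 for the other genes in this range. In 7 members the DKO values lay above all WT values and in 0 below them. Of all tested genes 12.5% and 11.0% were separated in these ways, and 16.8% of those in the level range for the higher direction. Since the minimum of 10 is a mean over all 5 libraries, some members passed it only through DKO. These were Snora23, Snora30, Snord53 and Snord7, with WT means of 7.46, 4.69, 7.51 and 9.39. Snord118 passed it only through WT, with a DKO mean of 9.67. By library, 12 of the 23 tested members were highest in DKO replicate 2 and 5 in DKO replicate 1, and 11 were lowest in WT replicate 1.

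**Figure D2:**
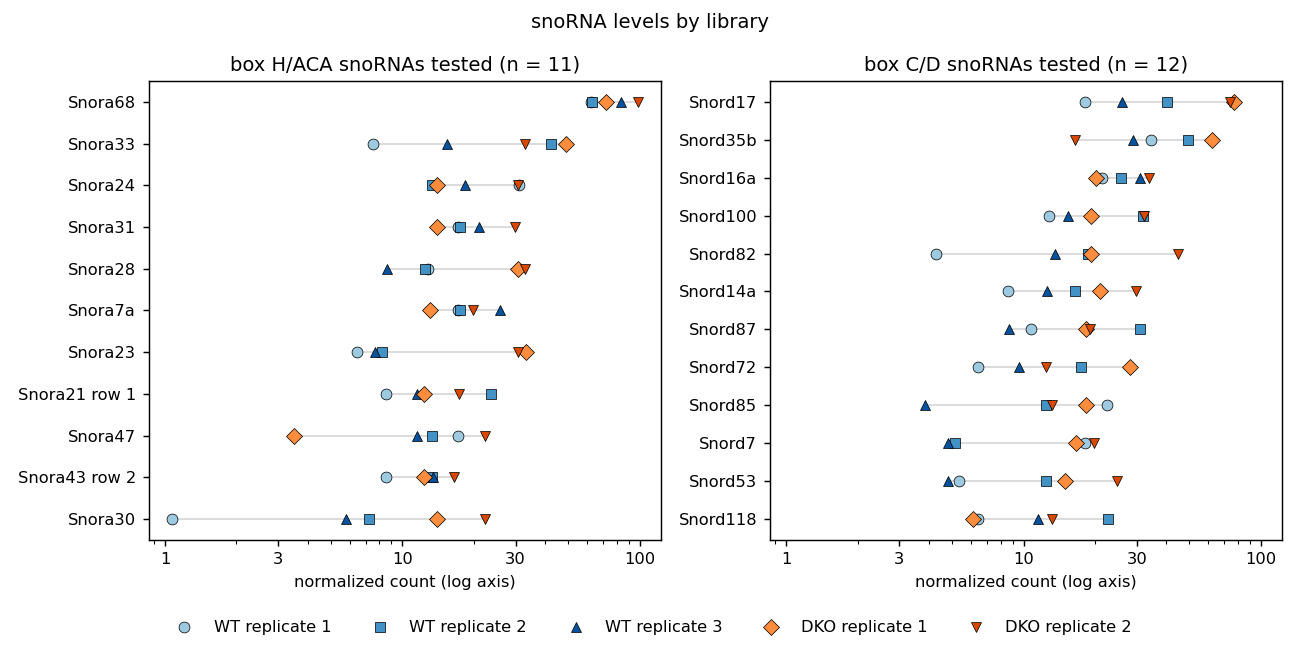
Normalized count (log axis) of each tested snoRNA in the 5 libraries, for box H/ACA (left, 11 rows) and box C/D (right, 12 rows), ordered by mean. Blue symbols are WT and orange symbols DKO. In Snora23, Snora28, Snora30, Snord17, Snord82, Snord14a and Snord53 both DKO values lie above the 3 WT values.

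Among box C/D snoRNAs, Snord17 was at 18.2, 40.2 and 25.9 normalized counts for WT against 77.1 and 74.3 for DKO. Both DKO values were close to each other and above the highest WT value, with a mean of 28.1 ± 11.2 (SD, n = 3) against 75.7 ± 1.93 (n = 2) and a log2 fold change of 1.47 ± 0.52 (SE; adjusted p = 0.823, limma). Snord82, whose host Ncl encodes a major nucleolar protein, was at 4.28, 18.6 and 13.5 for WT against 19.3 and 44.6 for DKO. DKO replicate 1 lay just above WT replicate 2, and DKO replicate 2 well above (log2 fold change 1.41 ± 0.86, adjusted p = 0.871, limma). Snord14a, which pairs with the precursor of small-subunit rRNA, was at 8.56, 16.5 and 12.5 against 21.0 and 29.7, and Snord53 at 5.35, 12.4 and 4.80 against 14.9 and 24.8. The log2 fold changes of this pair were 0.99 ± 0.72 and 1.36 ± 0.90, each less than 2 SE from 0. Snord118 went the other way in its mean, at 6.42, 22.7 and 11.5 for WT against 6.13 and 13.2 for DKO, with overlapping groups (−0.37 ± 0.93). Snord16a was nearly level between the groups, at 26.0 ± 4.67 and 27.0 ± 9.70 (0.02 ± 0.59).

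Of the tested rows, the highest ratios of DKO to WT means were those of box H/ACA members Snora23, Snora30 and Snora28. Among these, Snora23 and Snora30 passed the minimum only through their DKO values. Snora23 was at 6.42, 8.25 and 7.69 normalized counts for WT against 33.3 and 30.6 for DKO. Its group means were 7.46 ± 0.937 (SD, n = 3) and 31.9 ± 1.92 (n = 2), a ratio of 4.28. The log2 fold change was 1.97 ± 0.75 (SE, adjusted p = 0.823, limma). The underlying reads were few, 22 in the WT group and 75 in the DKO group, so these SDs measure the spread poorly. Snora28 was at 12.8, 12.4 and 8.65 for WT against 30.6 and 33.0 for DKO (1.44 ± 0.69, adjusted p = 0.836, limma). Snora30 was at 1.07, 7.22 and 5.77 against 14.0 and 22.3 (1.94 ± 1.10), where WT replicate 1 had a single read. Snora33 had its DKO values at 49.0 and 33.0, between and above WT values of 7.49, 42.3 and 15.4. Snora24, Snora31 and Snora7a, at log2 fold changes of 0.07 ± 0.72, 0.14 ± 0.68 and −0.28 ± 0.68, had overlapping groups. Snora47 had the lowest log2 fold change of the tested members, −0.54 ± 0.96, with 3.50 in DKO replicate 1 and 22.3 in DKO replicate 2 around WT values of 17.1, 13.4 and 11.5.

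Summed over all rows, which needs no minimum, both classes had their 2 highest totals in the DKO libraries. Box H/ACA rows summed to 258, 269 and 256 normalized counts for WT against 342 and 417 for DKO, a ratio of means of 1.46. With quantile scaling DKO replicate 1 (284) fell within the WT range of 238 to 326 for this class. Box C/D rows summed to 262, 372 and 273 for WT against 494 and 503 for DKO, a ratio of 1.65. Here the DKO totals stayed above WT with quantile scaling too, at 405 and 507 against 272, 327 and 371, as they did in both classes with TMM scaling or scaling to genes outside the mitochondrial genome. The tested members alone had a ratio of 1.51, and the other genes in their level range 1.10. Members with reads below the minimum had a ratio of 1.70 and lie outside that range. Leaving out Snora68 and Snord17, the member with the most reads in each class, from the sums over all rows gave ratios of 1.54 and 1.54. In RPM of the reads outside the mitochondrial genome, the totals ran from 15.7 to 17.2 in WT and from 22.1 to 28.7 in DKO for box H/ACA, and from 15.9 to 23.3 and from 31.9 to 34.6 for box C/D. No p-value is given for these sums, since the members were chosen with earlier results known.

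**Figure D3:**
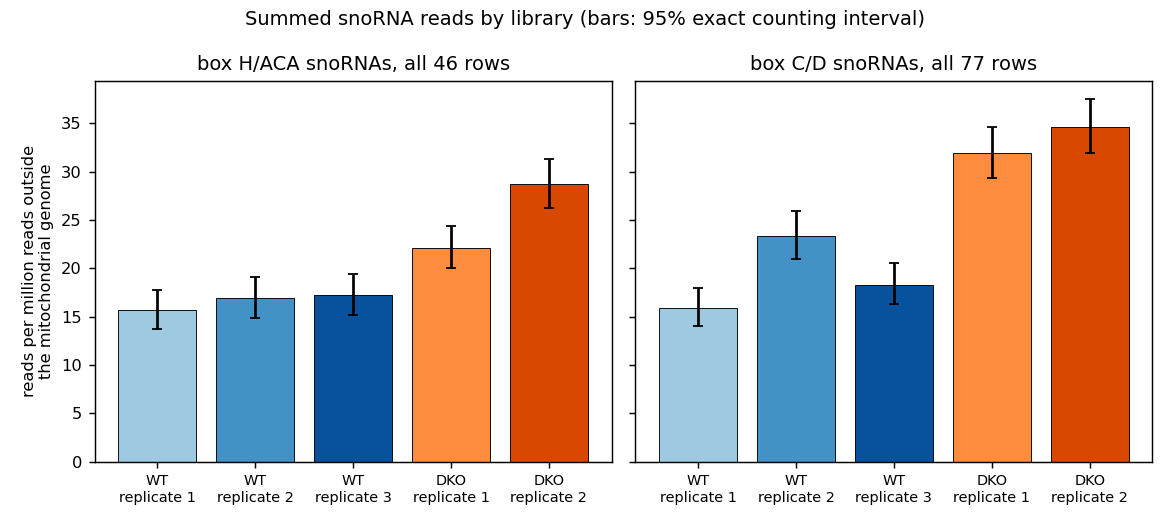
Summed reads of all box H/ACA rows (left) and all box C/D rows (right) in RPM of the reads outside the mitochondrial genome, by library, with exact Clopper-Pearson 95% intervals that cover counting error only. The DKO bars (orange) reach 22.1 and 28.7 for box H/ACA and 31.9 and 34.6 for box C/D, above the highest WT bars of 17.2 and 23.3.

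The comparison of the classes rests on counts and medians. Positive log2 fold changes were found in 9 of 11 box H/ACA and 10 of 12 box C/D members (5 of 10 and 9 of 12 with quantile scaling), and groups without overlap in 3 and 4. Of all tested genes 50% were positive and 12.5% were separated higher in DKO. Among the other genes in the level range these shares were 60.5% and 16.8%. The counts and medians include Snora23 and Snora30 (box H/ACA) and Snord53 and Snord7 (box C/D), which passed the minimum only through DKO. The median log2 fold change was 0.28 for box H/ACA (−0.03 with quantile scaling, and −0.03 without DKO replicate 2) and 0.66 for box C/D (0.40 and 0.75). The difference of the medians, box H/ACA minus box C/D, was −0.39 and ran from −0.78 without DKO replicate 2 to 0.05 without DKO replicate 1, so that its sign rested on that library. It is a description without a test. The ratio of summed box H/ACA to summed box C/D levels was 0.984, 0.723 and 0.937 for WT against 0.693 and 0.829 for DKO, with WT replicate 2 and DKO replicate 1 lowest and the genotypes overlapping.

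**Figure D4:**
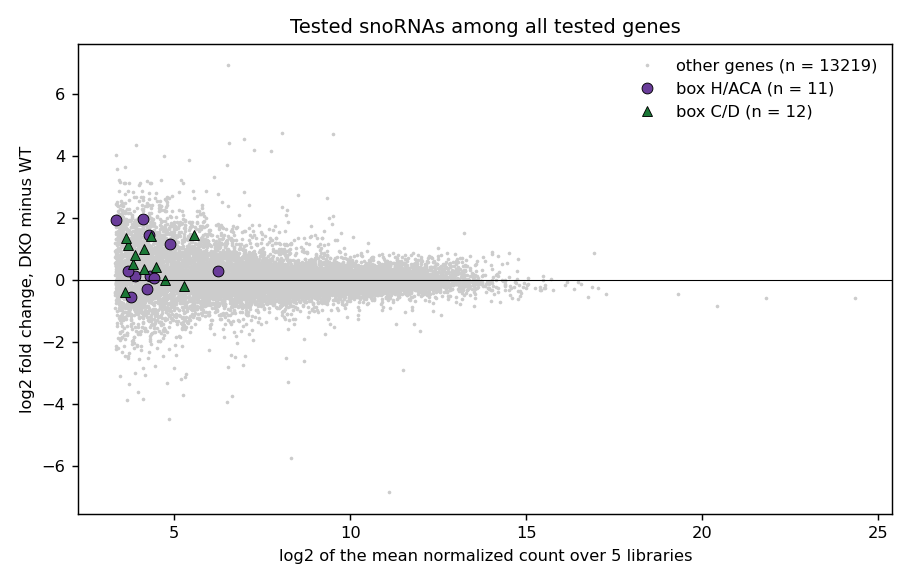
Log2 fold change (DKO minus WT, y axis) against the log2 of the mean normalized count (x axis) for every tested gene, with box H/ACA (purple circles) and box C/D snoRNAs (green triangles) over the other genes (grey). The snoRNAs sit at the low end of the level range, where the grey points spread most, and 19 of 23 lie above 0.

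Members below the minimum were not tested. Their DKO mean was higher in 36 and lower in 16 of 52, and their values summed to 162, 126 and 135 normalized counts for WT against 247 and 233 for DKO. In 13 the DKO values lay above all WT values and in 1, Snord89, below. The shares over all 10117 rows with reads below the minimum were 10.7% and 3.21%. Those rows were not matched to the members by level. A mean of at least 1 was reached by 66 of the 75 members with reads, but by 18777 of all 23359 rows with reads. No share over all rows was computed beside the 36 and 16. Snora20, in an intron of the chaperonin gene Tcp1, had 0 reads in each WT library and 7 reads in each DKO library. Its DKO mean was 5.83 times a floor of 3 reads over the WT group, which leaves out the counting error of the DKO reads. Snord45b was at 4.28, 3.10 and 4.80 for WT against 13.1 and 15.7 for DKO, and Snord19 in the nucleostemin gene Gnl3 at 4.28, 1.03 and 2.88 against 10.5 and 17.3. The ratios of their means were 3.55 and 5.10, on 46 and 41 reads in all. With a minimum mean of 1, 50 of 66 tested members had a positive log2 fold change, beside 52.1% of all genes then tested.

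Host genes were compared with the snoRNAs within them. Pairs with a host in the table are given for 18 of the 23 members, over 17 distinct hosts, and 7 of these members lay in ribosomal protein genes. The median log2 fold change of the hosts was −0.06, with a range from −0.32 to 0.51, and none passed the test. The SE of the hosts was smaller than that of most snoRNAs, so the sizes of the fold changes are not ranked. In 8 of the 18 pairs the snoRNA had a positive and the host a negative fold change, in 7 both were positive, in 2 both were negative, and in 1, Snora47 in Zbed3, the snoRNA was lower and the host higher. Ipo7, the host of Snora23, was at 1821, 1986 and 1887 normalized counts for WT against 1522 and 1937 for DKO. Snx5, the host of Snord17, was at 8313, 8270 and 9113 against 8562 and 8900, and Eif5, the host of Snora28, at 9131, 9514 and 11092 against 9197 and 9808. The hosts' genotypes overlapped in these genes, while those of their snoRNAs did not. Srcap, a chromatin remodeling ATPase that hosts Snora30, had overlapping groups, at 2219, 2364 and 4314 against 4005 and 4033 (log2 fold change 0.51 ± 0.29). Rps13, the host of Snord14a, was itself separated, at 143, 216 and 183 against 222 and 221. On the log2(value + 1) scale, snoRNA minus host was higher in DKO by 2.11 for Snora23, 1.66 for Snord82, 1.49 for Snora28 and 1.44 for Snord17. Each of these snoRNAs lay far below its host, so the distance was smaller in DKO. For Snora23 it went from a mean of −7.82 in WT to −5.71 in DKO. These members were picked for groups that do not overlap. Hosts and snoRNAs share libraries, and reads assigned to either depend on the authors' counting.

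**Figure D5:**
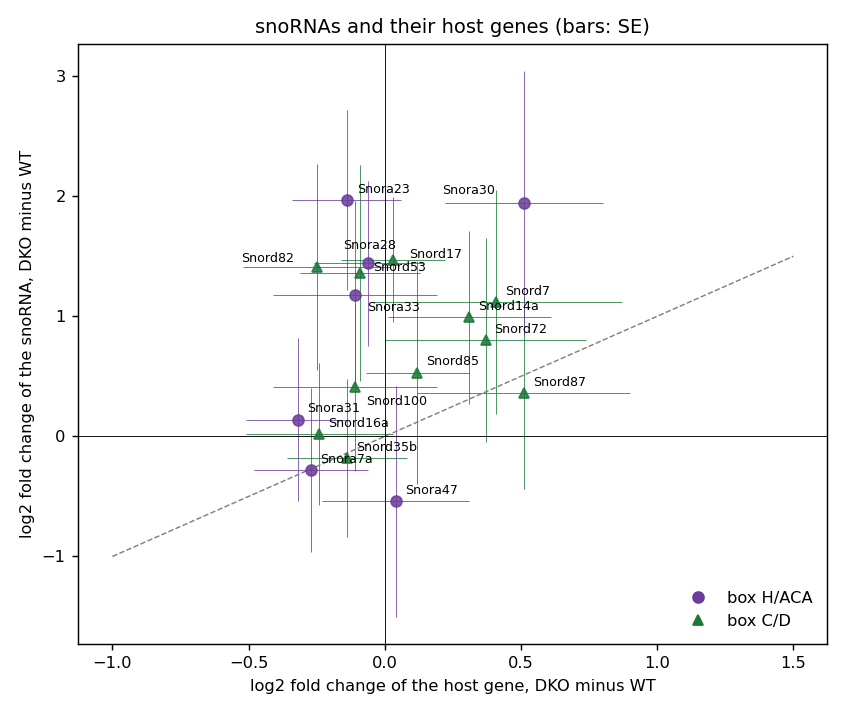
Log2 fold change (DKO minus WT) of 18 tested snoRNAs (y axis) against that of the annotated host gene (x axis), for box H/ACA (purple circles) and box C/D (green triangles), with SE bars and a dashed line where both would be equal. Hosts lie between −0.32 and 0.51, while the snoRNAs reach 1.97.

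Genes of the snoRNA machinery did not pass the test either. Among the 4 box C/D core protein genes of the table, log2 means were higher in DKO for 2 and lower for 2 (median 0.01), with Fbl, the methyltransferase, at 337 ± 54.3 (SD, n = 3) normalized counts in WT and 307 ± 59.4 (n = 2) in DKO, and Nop56 at 7742 ± 2134 and 8101 ± 2003. Of the 4 box H/ACA core genes 1 was higher and 3 lower (median −0.26), and in 2 the DKO values lay below all WT values, as in 11.0% of all tested genes. Nhp2 was at 265, 254 and 369 for WT against 151 and 244 for DKO, and Gar1 at 391, 366 and 326 against 251 and 324. Dkc1, the pseudouridine synthase, had overlapping groups, at 3742 ± 554 and 3278 ± 610. Of 17 genes of snoRNP assembly and trafficking 13 were lower and 4 higher (median −0.14), while 50% of all tested genes were higher. In 4 of the 17, and in 11.0% of all tested genes, the DKO values lay below all WT values. Of those separated, the AAA ATPase gene Ruvbl1 was at 495, 509 and 513 against 272 and 424. The export adaptor Phax, also separated, was at 581, 651 and 581 against 382 and 477. Genes of intron debranching and exonuclease trimming were higher in 6 and lower in 7 of 13. In these 4 lists 0 genes were called by limma and 0 had an unadjusted p under 0.05.

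Of the fixed list of multi-snoRNA noncoding hosts, matched by current symbol only, 8 genes were tested, with 4 higher and 4 lower log2 means in DKO and 0 called. Outside the genes so matched, Zfas1 was at 200, 275 and 240 normalized counts for WT against 341 and 271 for DKO, with overlapping groups, and 1810032O08Rik at 32.1, 28.9 and 24.0 against 70.9 and 47.1, without overlap (log2 fold change 1.01 ± 0.50). Gas5, a multi-snoRNA host, was at 3116, 3509 and 2949 normalized counts for WT against 4736 and 4373 for DKO (log2 fold change 0.52 ± 0.19, adjusted p = 0.823, limma), while Snord47, its member in the table, was at 0. Dancr, the host of Snora26, was at 23.6, 32.0 and 22.1 against 11.4 and 9.91, and Snora26 was at 0. Snhg6, the host of Snord87, was at 96.4, 208 and 118 against 224 and 162, and Snord87 at 10.7, 31.0 and 8.65 against 18.4 and 19.0, both highest or second highest in WT replicate 2.

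Other annotated snoRNAs and the small Cajal body RNAs, which guide modification of spliceosomal RNAs, had fold changes in the same direction. Of 1330 other rows typed snoRNA by GENCODE, 309 had reads and 52 were tested. Of these 52, 49 had a positive and 3 a negative log2 fold change (median 0.94, 0 called). All tested genes were positive in 50%, and those in the level range of the tested members in 60.5%. An unadjusted limma p under 0.05 was found for 8 of the 52, against 6.06% of all tested genes. In 95 of the 309 rows the DKO values lay above all WT values and in 2 below. These shares were 12.5% and 11.0% of all tested genes, and 10.7% and 3.21% of rows with reads below the minimum. The 1330 rows summed to 2613, 2266 and 2384 normalized counts for WT against 3642 and 3836 for DKO, a ratio of 1.54. All 6 tested Scarna rows had positive fold changes (median 0.82, 0 called), with sums of 193, 254 and 173 for WT against 391 and 223 for DKO, where DKO replicate 2 fell below WT replicate 2. Whether the snoRNA set differs from these groups was not tested.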

How the data were processed

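The authors deposited 1 table with a normalized signal per gene in each of 5 libraries, called normalized counts in the text. The submitters' processing notes list mm9, TopHat2 2.0.4, Cufflinks 2.0.2 and CASAVA 1.8.2. Per the labels' protocols, RNA was amplified (NuGEN Ovation) before sequencing. How reads were counted and scaled, with which annotation and whether by strand, is not given in the sources used here. Dividing each library by its value of 1 read gave whole numbers (within 0.01) for at least 99.99% of values, and these recovered reads served for depth, intervals and count tests.

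Genes averaging at least 10 over the 5 libraries entered a two-sided limma 3.58.1 fit (R 4.3.3) with trended variance, on log2 values after adding 1. Benjamini-Hochberg adjustment covered all 13242 genes, at a threshold of 0.05. Adding 1 can understate fold changes of low rows. On the recovered reads edgeR 4.0.16 and DESeq2 1.42.0 were run. The limma script was tested on simulated data. Members were matched by symbol to GENCODE M21 snoRNA genes (109 of 123). Rows with a repeated name, or without exactly 1 such gene, stayed unmatched. A host is the gene on the same strand that contains the snoRNA, the one with the longest exon sequence where there were several. The host pair of 1 tested member is not reported here.

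Named were Relb and Nfkb2, tested members whose groups did not overlap (up to 6 per class and direction, smallest p first), the 6 members per class with the highest mean and the 3 highest per length, members of the rRNA processing and imprinted lists, core protein genes, hosts of these, and members of the hosts with most members, ties included. All other genes named were chosen after their values were seen. The members and lists were chosen with earlier results of these data known. Exact Clopper-Pearson 95% intervals and the limit from a count of 0 (3 reads) cover counting error only, and amplified reads are not independent molecules.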

Additional observations from a re-analysis of the deposited data

How the results depend on the processing

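No member of the snoRNA set passed the adjusted threshold under any of the 19 alternatives run. The number at an unadjusted p under 0.05, 2 with all libraries, was 4 at a minimum mean of 1 and 0 at a minimum of 50, where a single member is tested and box C/D has no value. It ran from 0 to 3 when single libraries were left out, and was 0 without both WT replicate 2 and DKO replicate 1. The calls over all genes, 0 in the main test, were 2 with library weights, 29 with DESeq2, 2 without both those libraries and 0 to 1 when single libraries were left out. The summed box H/ACA level, 0.54 as log2 of DKO over WT, was 0.36 with quantile scaling, 0.39 to 0.68 when single libraries were left out and 0.70 without both libraries. The fits without a DKO replicate assume that the remaining library varies like WT. The labels do not say that the replicate numbers pair libraries. Deviations from the group means correlated at 0.00499 for the libraries numbered 1 and at −0.280 for those numbered 2. With only 2 DKO libraries their deviations mirror each other, so WT replicate 2 correlated at 0.280 with DKO replicate 1. These values therefore cannot decide whether the numbers pair libraries. With the replicate block, 36 genes and 0 members were called, 0 members had an unadjusted p under 0.05, and WT replicate 3 drops out of the comparison. Log2 fold changes of Snora23 and Snord17 ran from 1.65 to 2.09 and from 1.20 to 1.75. Depth limits single rows: tested members rest on 57 to 407 reads over the 5 libraries.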

Other observations

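Other classes of small RNA genes in the table gave the values below. For comparison, 50% of all tested genes had a positive log2 fold change and 6.06% an unadjusted limma p under 0.05. Among the other genes in the level range of the tested snoRNAs 60.5% were positive. Rows typed snRNA by GENCODE numbered 1354, of which 28 were tested, 26 with a positive and 2 with a negative log2 fold change (median 1.15, 0 called by limma, 1 at an unadjusted p under 0.05). They summed to 1106, 1160 and 575 normalized counts for WT against 1851 and 1371 for DKO, a ratio of means of 1.70, with both DKO libraries above the WT libraries. Among 19 tested rows typed miRNA, 13 had a positive and 6 a negative log2 fold change (median 0.72, 0 called, 4 at an unadjusted p under 0.05), while their sums ran the other way, at 20775, 16549 and 10402 for WT against 15979 and 7643 for DKO.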
